A study of Homo sapiens with 6 samples.

Results

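The 9 genes described here are the AP-1 subunit genes FOS, FOSB, FOSL1, FOSL2, JUN, JUNB and JUND, the related bZIP gene ATF3, and EGR1. They were taken by symbol from a table of read counts for 39323 genes, where each symbol had 1 row. All 9 passed the filter on low counts that left 16869 genes. They were put together with earlier results of these libraries known, in which FOS and EGR1 were among the genes raised on knockdown. They were thus chosen by the difference between siSF3B6 and siNC, which is therefore given for the members as a description, and counts of called members support nothing.

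The libraries came from MDA-MB-231, an established human line of mesenchymal breast cancer cells that lack hormone receptors. Cells kept in DMEM with fetal serum were transfected by lipid reagent with a small interfering RNA (siRNA) duplex against SF3B6 (siSF3B6, 3 libraries) or with a non-targeting duplex (siNC, 3 libraries). SF3B6 belongs to SF3b, a complex of the spliceosome that recognises intron branch points. Each group rests on a single duplex sequence in a single cell line, and the labels give no dose and no time of harvest. Nothing in the labels says that replicates were separate cultures, so the p-values rest on a spread among libraries that may be technical.

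AP-1 is a dimer of a FOS protein with a JUN protein, or of JUN proteins with each other, that binds DNA through a basic leucine zipper. FOS, FOSB, JUN, JUNB, ATF3 and EGR1 are immediate-early genes: growth factor, stress and cytokine signals raise their transcription within minutes through ERK, JNK and p38 kinases, and their mRNAs are short-lived. FOSL1 and FOSL2 are induced later and stay up under sustained ERK signalling, and FOSL1 is known as the leading FOS protein of mesenchymal breast cancer lines. EGR1 is a zinc finger factor that binds GC-rich sites and is restrained by the NAB corepressors.

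JUND was the only member with a lower mean in siSF3B6, though its groups overlapped (log2 fold change -0.08, SE 0.116). Its start-site sequence is shown with those of FOS, FOSB and EGR1, the genes with the largest differences. They come from RefSeq on GRCh38.p14, at chr14:75278578-75278773 on the plus strand for FOS, chr19:45467746-45467994 on the plus strand for FOSB, chr5:138465229-138465478 on the plus strand for EGR1 and chr19:18281623-18281872 on the minus strand for JUND. Each is written 5′ to 3′ and ends just before the first base that RefSeq or GENCODE 29 annotates as transcribed. Capitals mark TGACGT on either strand (read as ACGTCA on the other), which is the core of the cAMP response element TGACGTCA bound by CREB and ATF proteins, and the CArG box bound by serum response factor.
FOS: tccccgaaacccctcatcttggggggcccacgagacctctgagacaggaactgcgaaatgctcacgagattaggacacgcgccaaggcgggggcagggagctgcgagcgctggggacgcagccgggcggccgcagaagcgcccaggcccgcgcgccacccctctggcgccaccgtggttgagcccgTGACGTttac
FOSB: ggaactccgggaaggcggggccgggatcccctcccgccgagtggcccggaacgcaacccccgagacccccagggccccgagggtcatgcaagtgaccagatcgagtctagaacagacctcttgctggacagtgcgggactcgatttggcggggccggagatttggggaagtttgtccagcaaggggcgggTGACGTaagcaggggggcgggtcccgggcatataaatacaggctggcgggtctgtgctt
EGR1: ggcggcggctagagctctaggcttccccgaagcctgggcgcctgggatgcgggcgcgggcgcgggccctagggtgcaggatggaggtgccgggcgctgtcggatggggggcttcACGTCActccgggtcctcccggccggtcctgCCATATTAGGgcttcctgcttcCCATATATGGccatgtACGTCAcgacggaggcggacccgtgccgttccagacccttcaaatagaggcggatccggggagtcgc
JUND: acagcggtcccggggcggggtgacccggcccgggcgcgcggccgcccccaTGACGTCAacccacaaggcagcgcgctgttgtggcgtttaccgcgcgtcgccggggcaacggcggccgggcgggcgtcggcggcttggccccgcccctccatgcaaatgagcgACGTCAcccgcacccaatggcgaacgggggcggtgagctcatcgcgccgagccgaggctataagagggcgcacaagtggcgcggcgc

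The TGACGT core lay 64 bases before the RefSeq start of FOS and 60 bases before that of FOSB. EGR1 had it 136 and 67 bases before its start, and had CArG boxes 105 and 83 bases before it. JUND had the full TGACGTCA 200 bases before its start, which holds the core on both strands, and the core once more at 87 bases. RefSeq windows of 300 bases were matched for 8 of the 9 genes, with 9 windows in all since ATF3 had 2. TGACGT was in the windows of 5 genes, 1 window each, the fifth gene being FOSL2. It was in 7.98% of all 35116 promoter windows. A CArG box was in the window of EGR1 alone, against 1.29% of all windows. The windows begin 250 bases before the RefSeq start. Sites further upstream, in FOS or any other member, were not searched. The related word TGACATCA was in JUN and in 1 of the 2 ATF3 windows (2.61% of all windows). The AP-1 site TGANTCA was in FOSL2 (7.71%) and the EGR site GCGNGGGCG in EGR1 (9.43%). Both strands were searched, and TGACGT overlaps every TGACGTCA. These matches describe letters in a window and are no evidence of binding.

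Library depth was 28504091 to 38546037 reads. In siNC replicates 1 and 2, 3.38% and 3.93% of reads were mitochondrial, against 9.07% in siNC replicate 3 and 10.6% to 11.8% in siSF3B6, so siNC replicate 3 lay nearer to the knockdown libraries. Genes with 1 to 9 reads numbered 13952 and 14956 in siNC replicates 1 and 2. They numbered 7731 in siNC replicate 3 and 7877 to 8325 in siSF3B6. What this split means for members with few reads was not tested. The mean chi-square per gene between replicates was 2.3 and 3.49 for the pairs numbered 1 and 2, and 16.6 to 67.5 for every pair with a replicate 3. Since counting noise alone gives about 1, no pair was taken as a library deposited again. SF3B6 itself had 80.5 to 102 CPM in the siNC libraries and a mean of 22.9 ± 1.89 CPM with siSF3B6 (SD, n = 3), and its log2 fold change was -1.96 (SE 0.104, edgeR quasi-likelihood adjusted p = 1.43e-07). CPM here is the read count scaled to library size with TMM factors. All 8 markers chosen for MDA-MB-231, among them VIM and AXL, were above 1 FPKM (a level scaled to transcript length and library size) in every library, while ESR1, PGR and FOXA1 stayed at or below 0.04 FPKM. Of the 7 markers chosen as absent or low in this line, however, ERBB2 (4.13 to 5.38), GATA3 (2.23 to 3.63) and EPCAM (3.51 to 8.15 FPKM) were above 1 FPKM in every library. Markers of other cell types were low, with 12 of 18 under 1 FPKM in every library, but siSF3B6 replicate 2 differed. Their summed level was 4.5 to 4.71 FPKM in siNC, and 4.85, 12.2 and 5.6 FPKM in siSF3B6 replicates 1, 2 and 3. In siSF3B6 replicate 2 the hemoglobin gene HBB had 241 reads against 1 to 15 elsewhere, the collagen COL3A1 104 against 4 to 6, and the lysozyme LYZ 114 against 2 to 42. The endothelial marker CDH5 had 0 reads there. HBB alone had 4.14 of the 12.2 FPKM summed in that library. Of the 18 markers, 8 were highest in siSF3B6 replicate 2 and 3 in siSF3B6 replicate 3. The siNC replicates 1 and 2 were highest for 3 and 4 of them.

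The members differed widely in level. Per transcript length, FOSL1 was the most abundant in siNC at 114 ± 17.9 FPKM (SD, n = 3), above 98.2% of the genes tested. JUND followed at 62.5 ± 7.34, JUNB at 36.9 ± 2.40, JUN at 21.5 ± 1.76 and FOSL2 at 17.9 ± 0.922 FPKM. A wide gap separated these from EGR1 at 1.92 ± 0.15, ATF3 at 1.34 ± 0.02, FOS at 0.77 ± 0.0819 and FOSB at 0.227 ± 0.0751 FPKM, the last above 11.6% of tested genes. No 2 neighbours in this order had overlapping ranges over the 3 siNC libraries. In siSF3B6 the order was the same except that FOS (2.61 ± 0.942 FPKM) passed ATF3 (1.67 ± 0.0551 FPKM). With these separate ranges, leaving out any single siNC library could not change the order in siNC. TMM-scaled CPM per kilobase gave the same order, but its lengths were derived from the same FPKM values. Neither is therefore a separate check of the order.

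**Figure D1:**
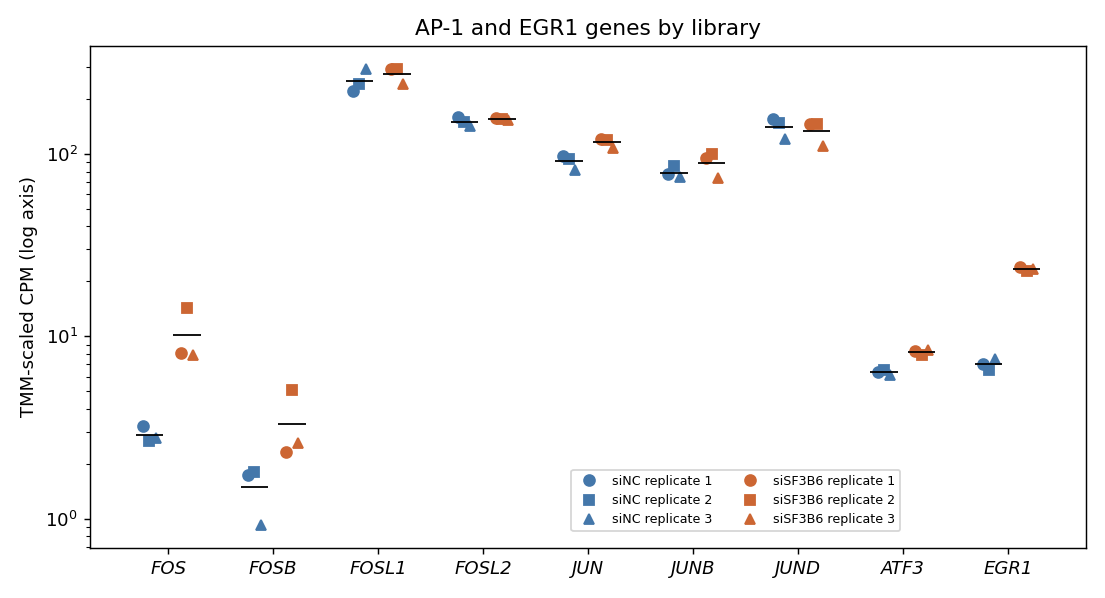
TMM-scaled CPM (log axis) of the 9 genes in each library, with siNC in blue, siSF3B6 in orange, a marker shape per replicate number and a black line at each group mean. FOS, FOSB, JUN, ATF3 and EGR1 have all siSF3B6 points above all siNC points, and siSF3B6 replicate 2 is far above its group for FOS and FOSB.

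EGR1 was higher in every siSF3B6 library, by a similar amount in each. In such bulk RNA, a change in how many cells express a gene and a change in RNA per cell cannot be told apart. It measured 7.08, 6.53 and 7.47 CPM in siNC replicates 1, 2 and 3 and 24.0, 22.7 and 23.3 CPM in siSF3B6 replicates 1, 2 and 3. The lowest knockdown library was thus over 3 times the highest control, and both groups were tight. The log2 fold change was 1.73 (SE 0.0977), a 3.32-fold difference, and it lay between 1.63 and 1.85 in the 16 alternative analyses of the counts. EGR1 read numbers were 197 to 251 in siNC and 706 to 838 in siSF3B6.

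Among the FOS genes, the immediate-early pair FOS and FOSB differed while the abundant FOSL1 and FOSL2 overlapped between the groups. FOS, the founding member and a strong transactivator, measured 3.21, 2.65 and 2.77 CPM with siNC and 8.10, 14.2 and 7.88 with siSF3B6. All siSF3B6 libraries were above all siNC libraries, with replicate 2 far above the other two. The log2 fold change was 1.82 (SE 0.215), or 3.52-fold, and 1.48 without siSF3B6 replicate 2. FOS had 80 to 100 reads per siNC library and 238, 526 and 241 in siSF3B6, where the exact 95% Poisson interval of the 526 reads is 482 to 573 (counting error only).

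FOSB, whose full-length product resembles FOS, measured 1.73, 1.79 and 0.923 CPM with siNC and 2.31, 5.04 and 2.58 with siSF3B6. The groups did not overlap, but siSF3B6 replicate 2 was again highest and siNC replicate 3 lowest. The log2 fold change of 1.19 (SE 0.307) was 0.74 without siSF3B6 replicate 2, 0.94 without siNC replicate 3 and 1.85 against siNC replicate 3 alone. With 31 to 54 reads per siNC library FOSB is the least precisely measured member. The same siSF3B6 replicate 2 has the raised HBB, COL3A1 and LYZ reads given above, and any link to its FOS and FOSB levels was not tested. Without that library both genes were still higher in the other siSF3B6 libraries than in any siNC library. EGR1 was lowest of the siSF3B6 group in that library.

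**Figure D2:**
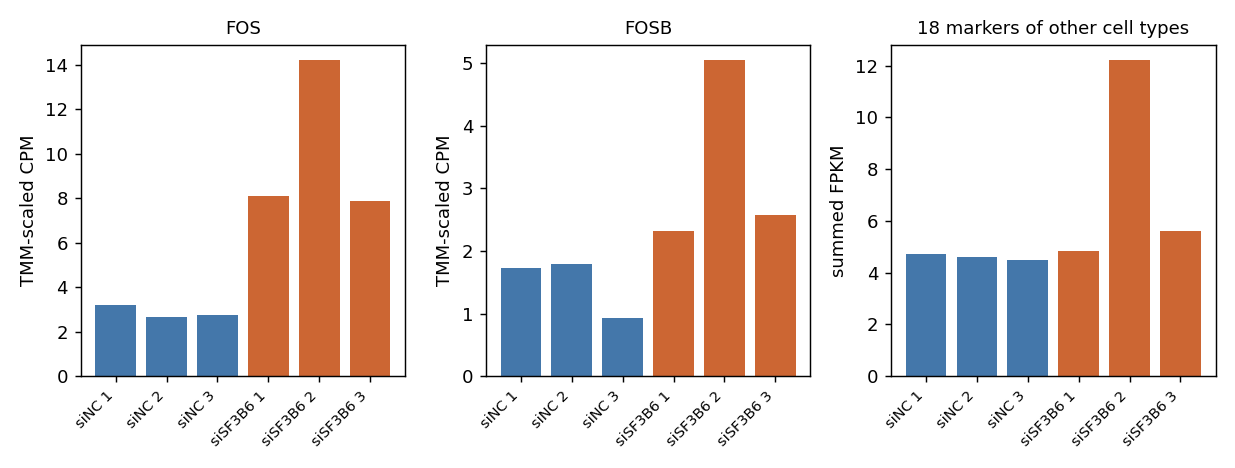
FOS and FOSB in TMM-scaled CPM and the summed FPKM of 18 markers of other cell types, 1 bar per library (siNC blue, siSF3B6 orange). siSF3B6 replicate 2 has the tallest bar in each panel, at 14.2 CPM, 5.04 CPM and 12.2 FPKM.

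FOSL1 (also called FRA1), which lacks the strong transactivation domain of FOS, measured 221, 241 and 293 CPM with siNC and 293, 291 and 241 with siSF3B6. The groups overlapped fully, with siNC replicate 3 as high as siSF3B6 replicates 1 and 2. Its log2 fold change was 0.13 (SE 0.109). It changed with the choice of control, from 0.34 among the libraries numbered 1 and 2 to -0.10 against siNC replicate 3 alone. FOSL2 (FRA2) measured 159, 149 and 142 CPM with siNC and 157, 155 and 153 with siSF3B6. Its log2 fold change was 0.05 (SE 0.0754). It was the most constant member, with its siSF3B6 libraries inside the siNC range.

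FOSL1 and FOSL2 made up most of the FOS family RNA in both groups. FOSL1 made up 85.6 ± 2.44% of the summed FOS family FPKM in siNC and 85.1 ± 1.06% in siSF3B6 (SD, n = 3), and FOSL2 13.6 ± 2.26% and 12.7 ± 1.14%. FOS took 0.716%, 0.552% and 0.492% in siNC and 1.41%, 2.46% and 1.63% in siSF3B6, so its share was higher in every knockdown library yet stayed small. The summed level was 133 ± 17.0 FPKM in siNC and 141 ± 13.9 FPKM in siSF3B6, with overlapping ranges.

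**Figure D3:**
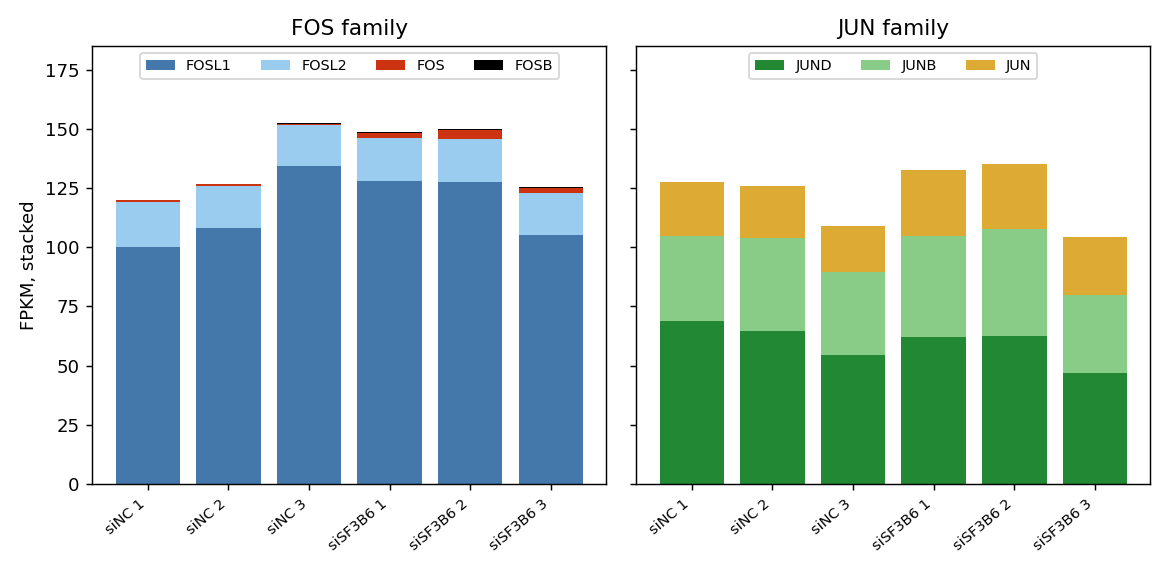
Deposited FPKM of the FOS genes (left) and JUN genes (right), stacked, 1 bar per library. FOSL1 and JUND are the largest segments of their families in all 6 bars, and FOS is a thin segment that is thicker in the siSF3B6 bars.

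Of the JUN genes, which are the partners that every FOS protein needs, only JUN had groups that did not overlap. JUN, the strongest activator of the 3, measured 97.7, 93.5 and 82.0 CPM with siNC and 121, 119 and 108 with siSF3B6. Every siSF3B6 library exceeded every siNC library, by a small margin. Its log2 fold change was 0.35 (SE 0.0872), or 1.27-fold. JUNB, which can oppose JUN, measured 77.1, 85.7 and 74.3 CPM with siNC and 94.7, 100 and 73.3 with siSF3B6. Its log2 fold change was 0.18 (SE 0.109). Its siSF3B6 replicates 1 and 2 were above all siNC libraries and its replicate 3 below them all. JUND, the more constitutive JUN gene, measured 155, 147 and 121 CPM with siNC and 145, 146 and 110 with siSF3B6. Its log2 fold change was -0.08 (SE 0.116). In both groups replicate 3 was the lowest for JUND.

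JUN took a larger share of its family in siSF3B6. It made up 17.8 ± 0.369% of the JUN family FPKM in siNC and 21.5 ± 1.74% in siSF3B6, while JUND made up 51.6 ± 1.99% and 46.1 ± 1.02% (SD, n = 3). The ranges of both shares were separate between the groups. FPKM is not corrected for GC content. With the GC and length offset given below, the log2 fold changes of JUN, JUNB and JUND were 0.48, 0.48 and 0.33. The size of the shift in shares thus depends on this choice. The ratio of summed FOS family to summed JUN family FPKM was 0.94, 1.01 and 1.40 in siNC and 1.12, 1.11 and 1.20 in siSF3B6, so the groups overlapped.

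ATF3, a stress-induced bZIP factor that pairs with JUN proteins and often represses, measured 6.35, 6.49 and 6.16 CPM with siNC and 8.34, 7.88 and 8.37 with siSF3B6. The groups were separate and each was tight. The log2 fold change was 0.37 (SE 0.111), or 1.29-fold.

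In the fit across all genes, FOS, FOSB, JUN, ATF3 and EGR1, 5 of the 9, were called higher and 0 lower at an adjusted p under 0.05. Over all genes tested 20.8% were called higher, 20.0% lower and 40.8% in either direction. The siSF3B6 libraries were all above the siNC libraries for the same 5 members, against 26.3% of all genes, and 52.1% of all genes did not overlap in either direction. Since this contrast chose the members, nothing is read from these counts. Which members were called varied with the setting. JUN was not called with scaling by library size alone (0.24), and ATF3 was not called there (0.27), against siNC replicate 3 alone (0.40), and without siNC replicate 1 (0.37) or siSF3B6 replicate 1 (0.36). FOSB, JUN and ATF3 were also not called on unfiltered log2(FPKM + 1) values. FOSL1 was called without siNC replicate 3 (0.26) and JUNB without siSF3B6 replicate 3 (0.30). Among the libraries numbered 1 and 2 alone 7 members were called higher, where 28.6% of all genes were called higher, 27.0% lower and 55.6% in all. Against siNC replicate 3 alone 4 members were called higher, where 6.60% of all genes were called higher, 7.24% lower and 13.8% in all.

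**Figure D4:**
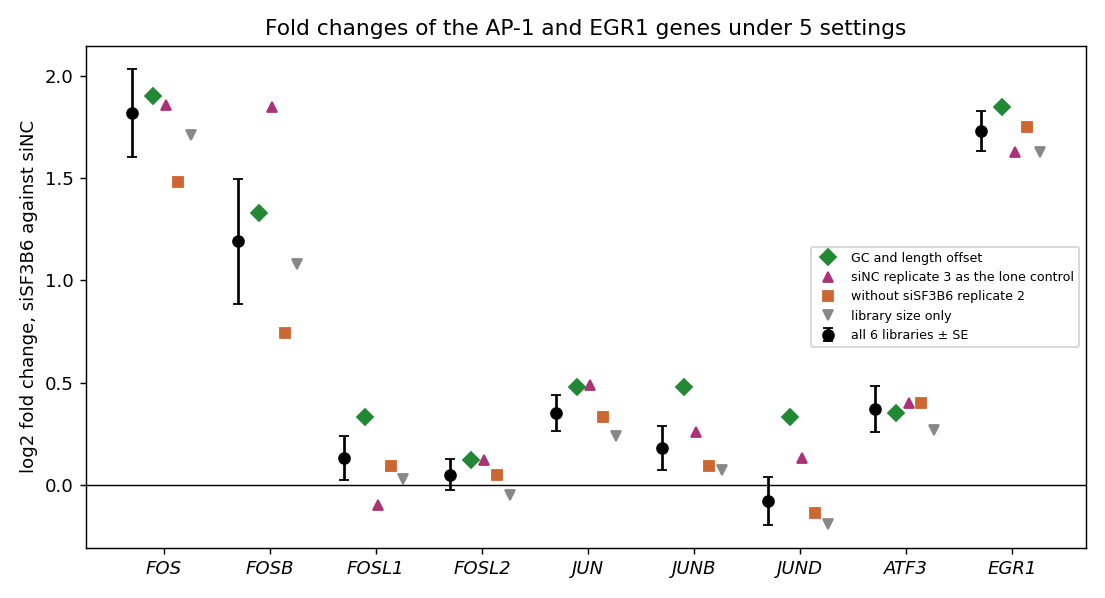
Log2 fold change of siSF3B6 against siNC for each gene, with its SE in the fit of all 6 libraries (black) and without error under 4 alternatives. FOS and EGR1 stay above 1.4 in each, FOSB spreads from 0.74 to 1.85, and JUNB, JUND and FOSL1 are raised by the GC and length offset.

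The members differ in base composition, and this touches the smaller differences. The GC content of the longest transcript was 69.7% for JUND, higher than in 99.6% of tested protein-coding genes, 64.9% for JUNB and 60.0% for FOSL1, against 46.7% for ATF3 and 52.6% for FOS. With an offset that removes each library's trend against GC content and length, JUND went from -0.08 to 0.33, JUNB from 0.18 to 0.48, FOSL1 from 0.13 to 0.33 and JUN from 0.35 to 0.48. All 9 members were then above 0 and 8 were called higher, with 23.7% of all genes called higher, 22.7% lower and 46.4% in all in that fit. FOS went from 1.82 to 1.90, FOSB from 1.19 to 1.33, EGR1 from 1.73 to 1.85 and ATF3 from 0.37 to 0.35. Whether JUND, JUNB and FOSL1 are higher in siSF3B6 thus depends on this choice.

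Gene structure also differs between the families. In GENCODE 29, JUN, JUNB and JUND have a single exon, EGR1 has 2, and FOS, FOSB, FOSL1, FOSL2 and ATF3 have 4 in the transcript with the longest coding sequence. Only 2.21% of tested protein-coding genes have a single exon. Of those 294 genes, 32.3% were called higher and 13.9% lower, with a median log2 fold change of 0.11, against 23.1% and 22.9% and a median of 0.00 for the genes with introns. The largest differences among the members, in FOS, EGR1 and FOSB, were all in genes with introns. Each member holds at least 1 ATTTA, the core of AU-rich elements that mark mRNAs for rapid decay, in its 3′ UTR, as do 67.4% of the 13000 tested coding genes with an annotated 3′ UTR. FOS had 5 and FOSL2 had 9. The longer TTATTTATT was in FOS and FOSL2 only, against 8.12% of these genes. Genes with TTATTTATT were called higher in 32.5% and lower in 18.3% of cases, and those without in 22.6% and 23.1%. FOS is on chromosome 14 at 75278774 to 75282230 and EGR1 on chromosome 5 at 138465490 to 138469315, both on the plus strand of GRCh38. JUNB shares 14.2% of its exonic bases with HOOK2 on the opposite strand, and since the counter's use of strand is not given in the sources used here, some of its reads may be those of HOOK2. The other 8 members shared no exonic base with another annotated gene.

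The profiles of the members over the 6 libraries fell into different kinds. EGR1 followed ATF3 closely (Pearson r of log2 CPM 0.98, n = 6 libraries) and FOS (0.94), and FOS followed FOSB (0.88) and JUN (0.89). FOSL1 followed none of them above 0.52, and JUND had -0.25 with EGR1. These points share libraries, and the difference between the groups is part of each profile. Outside the members, and among 11291 ranked genes of at least 5 CPM, the genes most like EGR1 were CDCP1 (0.9998), PIP4K2C (0.9993) and STC1 (0.999). STC1, a secreted glycoprotein hormone, went from 23.6 ± 1.77 to 54.0 ± 1.52 CPM. Pearson r takes no account of the size of a difference. The log2 fold changes of CDCP1, PIP4K2C and STC1 were 0.45, 0.46 and 1.19, against 1.73 for EGR1. An r above 0.95 with EGR1 was found for 1103 genes, so a shared profile is common here. FOS was matched best by FUNDC2 (0.9949), PLIN2 (0.9935) and JOSD1 (0.9912), and JUN by ZNF408 (0.9985), ALAS1 (0.9981) and ST14 (0.9961). FUNDC2, PLIN2 and JOSD1 had log2 fold changes of 0.38, 0.14 and 0.24, against 1.82 for FOS. Among the closest to FOSL1 were the ribosomal protein genes RPL36 (0.9945) and RPL35 (0.9936), which were likewise high in siNC replicate 3 and in siSF3B6 replicates 1 and 2 and low in siSF3B6 replicate 3. RPL35 measured 544, 631 and 910 CPM with siNC and 911, 944 and 604 with siSF3B6.

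The other genes of the pathway were taken from lists written from general knowledge. Adjusted p-values are edgeR quasi-likelihood values over all genes, and the median log2 fold change of all genes tested was 0.001. With the GC and length offset 23.7% of all genes were called higher and 22.7% lower. These shares were 28.6% and 27.0% among the libraries numbered 1 and 2, and those against siNC replicate 3 alone are given above. Of the 24 tested genes for other bZIP factors, 6 rose and 4 fell (of all genes 20.8% rose and 20.0% fell), with a median of 0.07. The repressors BATF3 and JDP2, which pair with JUN proteins in place of FOS, fell by 1.31 (SE 0.151, adjusted p = 2.86e-05) and 0.83 (SE 0.142, adjusted p = 0.000493) on the log2 scale. BATF3 went from 11.7 ± 1.45 to 4.69 ± 0.935 CPM and JDP2 from 15.9 ± 2.00 to 8.95 ± 1.74 CPM. ATF5 fell by 0.61, and BACH1, a heme-regulated repressor, rose by 0.66. The other called genes of this list were named after their values were seen. CREB5 (1.28, at 2.82 ± 0.239 CPM with siNC), ATF7 (0.60), NFE2L2 (0.50), ATF2 (0.44) and CREB1 (0.29) rose, and ATF6 (-0.41) fell. Under the offset for GC and length 11 rose and 6 fell, and against siNC replicate 3 alone 2 rose and 4 fell. Of the EGR1 relatives, EGR2 was at 0.274 ± 0.104 CPM with siNC and 0.532 ± 0.182 with siSF3B6 (adjusted p = 0.0709), and EGR3 and EGR4 did not pass the filter. The corepressor NAB1 rose (0.39, adjusted p = 0.00968) and NAB2, itself a target of EGR1, fell by 0.35 (adjusted p = 0.0117). Both calls were lost against siNC replicate 3 alone, at 0.28 (adjusted p = 0.283) and -0.18 (adjusted p = 0.421), and that of NAB2 also with the GC and length offset (-0.09, adjusted p = 0.258) and, at -0.31, without siNC replicate 1 (adjusted p = 0.0591) or 2 (adjusted p = 0.0597).

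Upstream genes moved in both directions. Serum response factor, SRF, which drives FOS and EGR1 through CArG boxes, was at 99.7 ± 6.40 CPM with siNC and 98.4 ± 3.51 with siSF3B6, a difference on the log2 scale of -0.02 (SE 0.0789). Of the 7 tested genes of SRF and its cofactors 3 rose and 1 fell (of all genes 20.8% rose and 20.0% fell), with a median of 0.12. The LIM protein FHL2 rose by 0.60 (adjusted p = 9.44e-05) and the ternary complex factor ELK4 by 0.32, while its relative ELK3 fell by 0.33. MRTFB (0.30, adjusted p = 0.0471) lost its call in 13 of the 17 alternatives that tested it, ELK4 in 6 of 19 and ELK3 in 2 of 19. Without siNC replicate 1 or 2 only 1 of these genes rose, when 2661 and 2503 of all genes were called higher.

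Of the 17 genes of the RAS-ERK pathway, 5 rose and 7 fell (29.4% and 41.2%, against 20.8% and 20.0% of all genes), with a median of -0.18. NRAS went from 113 ± 3.83 to 180 ± 17.4 CPM (0.67, adjusted p = 5.37e-05) while HRAS went from 154 ± 15.2 to 91.8 ± 14.3 CPM (-0.75, adjusted p = 0.000192). The ERK kinase MAP2K2 fell by 0.61, a call lost against siNC replicate 3 alone (-0.40, adjusted p = 0.0541), and RPS6KA3, an ERK-activated kinase that phosphorylates SRF and CREB, rose by 0.56. The relatives of RPS6KA3, named after their values were seen, were all called lower. They were RPS6KA1 (-0.54), RPS6KA2 (-0.37), RPS6KA4 (-0.49) and RPS6KA5 (-1.14). MAP2K1, the paralog of MAP2K2, was named after its value was seen and rose by 0.22 (adjusted p = 0.0301). The ERK gene MAPK3 (-0.18, SE 0.0853) did not pass the threshold. Against siNC replicate 3 alone 2 of the 17 rose and 3 fell, and 3 rose without siNC replicate 2.

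Of the 17 JNK and p38 pathway genes, 4 rose and 4 fell (23.5% each, near the 20.8% and 20.0% of all genes), with a median of 0.00. Among the libraries numbered 1 and 2, 5 rose and 8 fell, and against siNC replicate 3 alone 2 rose and 2 fell. MAP3K1 (0.77, adjusted p = 0.000108) and MAP2K4 (0.66, adjusted p = 0.000108), which lie above JNK, rose, while the JNK gene MAPK9, named after its value was seen, fell by 0.45 (adjusted p = 0.000503). Another JNK gene, MAPK8, likewise named after its value was seen, had 0.24 (SE 0.0959) and was not called. The p38 genes MAPK11 (-1.02, adjusted p = 0.000171) and MAPK12 (-0.70, adjusted p = 0.000473) fell, while the main p38 gene, MAPK14, had -0.06 (SE 0.075). MAPK12 lost its call against siNC replicate 3 alone (-0.40, adjusted p = 0.0758).

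Genes for the decay of AU-rich mRNAs rose about as often as all genes did. Of 14 genes of AU-rich element decay, 3 rose and 1 fell (21.4% and 7.14%, against 20.8% and 20.0% of all genes), with a median of 0.07. The balance turned under the offset for GC and length, where 2 rose and 5 fell (of all genes 23.7% and 22.7%). Among the libraries numbered 1 and 2, 5 rose and 3 fell (of all genes 28.6% and 27.0%). ZFP36L1, which recruits deadenylases to AU-rich mRNAs, went from 110 ± 8.37 to 229 ± 13.7 CPM (1.05, adjusted p = 2.2e-06). Its relative ZFP36 (tristetraprolin) rose by 0.41 (adjusted p = 0.00622), and the decay factor KHSRP fell by 0.33 (adjusted p = 0.00643). ZFP36 and KHSRP lost their calls against siNC replicate 3 alone (0.30, adjusted p = 0.235, and -0.35, adjusted p = 0.0872). CNOT6L (0.37) lost its call in 6 of 19 alternatives. Among 6 genes for ubiquitin ligases and related regulators of JUN and FOS, FBXW7, which marks phosphorylated JUN for degradation, rose by 0.61 (adjusted p = 0.000675) and ITCH by 0.47 (adjusted p = 0.0032), and 0 fell. ITCH lost its call against siNC replicate 3 alone (0.19, adjusted p = 0.293).

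Other immediate-early genes were mostly higher. Of 26 tested, 18 rose and 1 fell (69.2% and 3.85%, against 20.8% and 20.0% of all genes), with a median log2 fold change of 0.45. A similar list was known to be mostly higher in these libraries, so its direction is not independent evidence. It shares ZFP36 and MAFF with the lists above. The nuclear receptor NR4A2 went from 3.85 ± 0.394 to 8.65 ± 0.537 CPM (1.17, adjusted p = 2.03e-05) and the pseudokinase TRIB1 from 24.3 ± 0.604 to 52.4 ± 3.57 CPM (1.11, adjusted p = 1.69e-06). IER3, an anti-apoptotic early response gene, rose by 0.96 and the matricellular protein gene CCN1 by 0.67. The 1 that fell was KLF2, named after its value was seen (-0.37, adjusted p = 0.00659), and 0 fell under the offset for GC and length. Among the 7 that were not called, IER2 had 0.13 (SE 0.117), IER5 0.00 (SE 0.0861) and NR4A1 0.12 (SE 0.21), all chosen after their values were seen. Without siSF3B6 replicate 2, 18 again rose, when 3118 of all genes were called higher. Against siNC replicate 3 alone 13 rose and 0 fell, against 6.60% of all genes called higher in that fit.

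Of 32 tested textbook targets of AP-1 or EGR1, 15 rose and 3 fell (46.9% and 9.38%), with a median of 0.24. Of all genes 20.8% were called higher and 20.0% lower. The chemokine gene CXCL8 (2.80, adjusted p = 4.09e-09) and the prostaglandin synthase gene PTGS2 (1.87, adjusted p = 8.99e-07) rose, as did the chromatin protein gene HMGA2, from 77.8 ± 10.7 to 178 ± 12.4 CPM (1.19, adjusted p = 3.18e-06). The cytokine gene IL11, likewise an AP-1 target, fell by 1.89 (adjusted p = 7.55e-07). CXCL8, PTGS2 and IL11 were known to be changed when the list was written. Against siNC replicate 3 alone 12 rose and 1 fell.

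**Figure D5:**
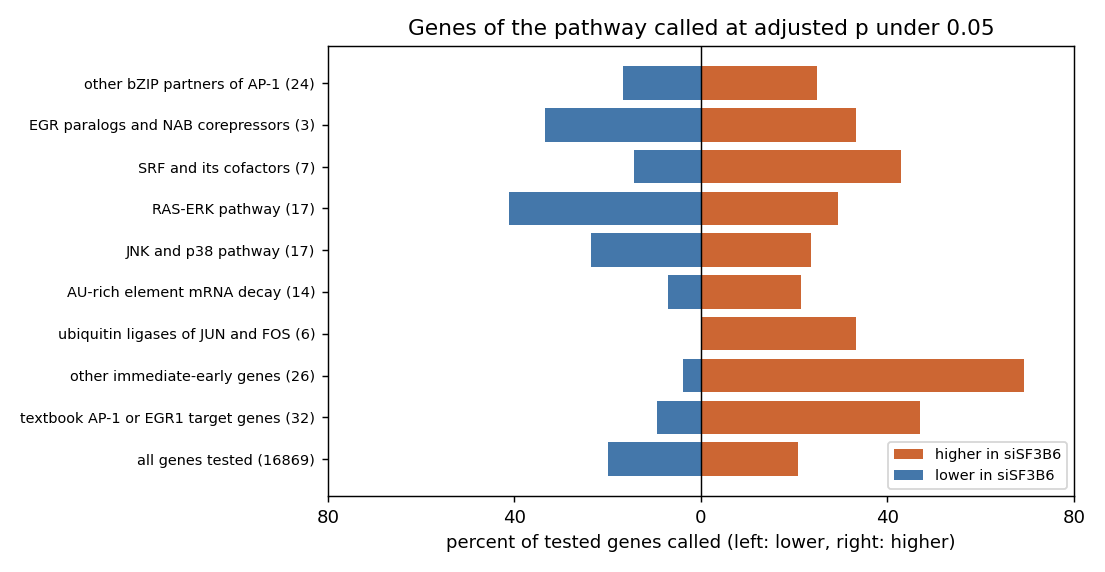
Percent of the tested genes of each list (number in parentheses) called higher (right, orange) or lower (left, blue) in siSF3B6 at an adjusted p under 0.05, with all genes tested at the bottom. Other immediate-early genes have 69.2% higher and 3.85% lower, against 20.8% and 20.0% of all genes.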

How the data were processed

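Polyadenylated RNA of 3 siSF3B6 and 3 siNC libraries of MDA-MB-231 was sequenced, with strand-specific libraries per the labels' protocols. Groups and replicate numbers came from the sample titles, since the cell line field counts upward from that name across samples. The authors deposited raw read counts for each gene. They also deposited FPKM values, rounded to 2 decimals, for 39210 genes. The submitters' processing notes list HISAT2, DESeq2 and hg38. The counter and its annotation are not stated.

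Counts were filtered (filterByExpr), scaled by TMM factors and tested with edgeR 4.0.16 (quasi-likelihood, R 4.3.3), comparing siSF3B6 with siNC and using no block. Benjamini-Hochberg adjustment ran over 16869 genes at a threshold of 0.05. SE is the log2 fold change over the square root of F. CPM values use the TMM factors. The members and lists were chosen with earlier results of these data known. Genes named besides the members and SF3B6 are, per list, up to 4 called genes of at least 5 CPM with the largest change, and the 3 genes most correlated with FOS, JUN, EGR1 and FOSL1, though not every such gene is reported here. GENCODE 29 gave structure, GC content and overlap, with GC content for 16675 of the tested genes, and may differ from what the authors used. SRF, EGR2, MAP2K1, MAPK3, MAPK8 and MAPK14 were named after their values were seen, for their place in the pathway. The further called bZIP genes and the relatives of RPS6KA3 were likewise named after their values were seen. The edgeR test was checked on simulated counts.

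Alternatives included limma-voom (limma 3.58.1), DESeq2 1.42.0, scaling by RLE factors or by library size only, 2 other filters, a replicate block, each library left out, the libraries numbered 1 and 2 only, siNC replicate 3 alone as control (assumed to vary like the siSF3B6 libraries), a GC and length offset (lowess, span 0.3), and limma on FPKM on a log2 scale, with 1 or 0.1 added for genes whose mean reached 0.5, or with 1 added and no filter.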

Additional observations from a re-analysis of the deposited data

How the results depend on the processing

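Over all libraries 8 of the 9 members had a positive log2 fold change, 7 when scaled by library size and 9 under the GC and length offset, and FOSL2 was at 0.00 in the FPKM fits. Called higher were 5 members over all libraries, 3 with library size only, 8 with the GC and length offset, 2 with unfiltered log2(FPKM + 1), and 4 to 6 when single libraries were left out. Of the 16869 genes tested, 3509 were called higher over all libraries, 2459 with library size only and 3993 with the offset. Unfiltered log2(FPKM + 1) gave 1561 of 39210 genes, and single libraries left out gave 2503 to 3881 genes called higher. Scaling by library size only moved the median of all genes by about -0.10 and turned the split of calls from 3509 higher and 3380 lower to 2459 and 4558. Against siNC replicate 3 alone 2471 genes were called (1178 higher, 1293 lower) instead of 6889, and 44 list genes instead of 78. With unfiltered log2(FPKM + 1) 3817 were called, 1561 higher. Single libraries left out gave 5044 to 7571 calls. FOSB gave no value with the FPKM filter, and log2(FPKM + 1) understates low genes (FOS 1.00, EGR1 1.29). With the replicate number as a block 8052 genes were called and the same number of members, 5. Same-numbered libraries' deviations from their group means correlated at 0.033, 0.102 and 0.123, and since the first is not over 0.1 the numbers were not taken as pairs, although each library correlated best with its own number. Of 32 named list genes, 21 kept their call in every alternative, 11 lost it in at least 1 and 0 changed direction. The causes of these shifts were not tested. The low reads of FOS and FOSB in siNC limit their precision.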
